A study of Homo sapiens with 4 samples.

Results

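The BCL2 family decides whether a cell opens the outer membrane of its mitochondria, the committing step of intrinsic apoptosis. Pro-survival proteins such as BCL2 and MCL1 hold the membrane closed, effectors such as BAK1 form the pores, and BH3-only proteins either block the pro-survival members or activate the effectors. In mammary epithelial cultures the BH3-only proteins BIM and BMF are known for their part in anoikis, the death of cells that lose contact with matrix. The set described here holds 10 genes chosen by symbol from the 58051 gene identifiers of the deposited tables: 4 pro-survival genes (BCL2, BCL2L1, BCL2L2 and MCL1) and 6 pro-death genes, of which BAK1 is an effector and BCL2L11 (which encodes BIM), BID, BAD, BMF and BIK are BH3-only genes. Each symbol matched a single identifier, and all 10 passed the filter on low counts.

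The libraries were made from MCF10A cells, a human mammary epithelial line that is established in culture and forms no tumours. In the siLMNA group (2 libraries, genotype label lamin A/C knockdown) cells received an siRNA against LMNA, and in the siLacZ group (2 libraries, genotype label LacZ(WT)) a non-targeting control directed at LacZ, a gene of bacteria. All cells were transfected with 50 nM siRNA and 4 uL of the transfection reagent RNAiMAX. The cells were changed to growth medium after 6 h and collected at 48 h, and poly(A) RNA was sequenced. Whether the LMNA siRNA was a single duplex or a mixture was not stated in the labels. They do not state either that replicates were grown separately, so each p-value reflects the spread among these 4 libraries, and that spread may be technical.

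Library totals ranged from 42809595 to 46191091 counts. LMNA itself was at 61.1 and 58.1 CPM in the siLMNA libraries, against 480 and 524 CPM in the siLacZ libraries. CPM are counts per 1e6 counts of the library, scaled by TMM, edgeR's correction for library composition. All 11 markers fixed for mammary epithelium had counts in every library, and they summed to 32895 and 31205 CPM in siLMNA, against 16977 and 17881 CPM in siLacZ. The 6 endothelial markers summed to 15.6 and 15.1 CPM in siLMNA, against 11.8 and 12.4 CPM in siLacZ. Of 8 leukocyte markers CD3E was at 0 in all libraries, and PTPRC had a single count in all. The sum of the 8 was at most 34.0 CPM in siLMNA and 25.8 CPM in siLacZ. Nearly all of it was CD14, at 33.7 and 27.8 CPM in siLMNA, against 25.2 and 25.6 CPM in siLacZ. CD14 was the only leukocyte marker with enough counts to be tested, and it was called higher (log2 fold change 0.28). The 8 fibroblast markers summed to 766 and 767 CPM in siLMNA, against 175 and 178 CPM in siLacZ. Most of this was DCN, at 629 and 639 CPM in siLMNA, against 160 and 163 CPM in siLacZ. COL1A1 was at 130 and 122 CPM in siLMNA, against 13.0 and 12.7 CPM in siLacZ. Of the 5 fibroblast markers tested, 4 were called higher and 0 lower. The other 3 had too few counts, and of these COL3A1 was at 0 throughout. The part of these marker differences in the results below was not tested.

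BMF and BCL2L11 rose, BAK1 rose by less, and BCL2, MCL1, BCL2L2, BAD and BIK fell after LMNA siRNA. Of the 10 members, 3 rose, 5 fell and 2 (BCL2L1 and BID) did not pass the test (edgeR quasi-likelihood test, Benjamini-Hochberg adjusted p under 0.05 over 18540 tested genes). The test thus called 80% of the members, against 54.3% of all tested genes, where 26.5% were higher and 27.8% lower. Leaving out a library changed the count that fell, which was 3 without siLacZ 1 and 2 without siLacZ 2. Among the pro-survival genes 0 rose and 3 fell, while 1 did not pass, and the median log2 fold change was -0.27. Among the pro-death genes 3 rose and 2 fell, while 1 did not pass, and the median was 0.24, while the median over all tested genes was -0.01. Against a minimum change of 1.5-fold, which 20.7% of all tested genes passed, 3 members passed: BMF and BCL2L11 toward higher and BCL2 toward lower. In bulk RNA, fewer cells with a transcript and less of it per cell cannot be told apart.

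**Figure D1:**
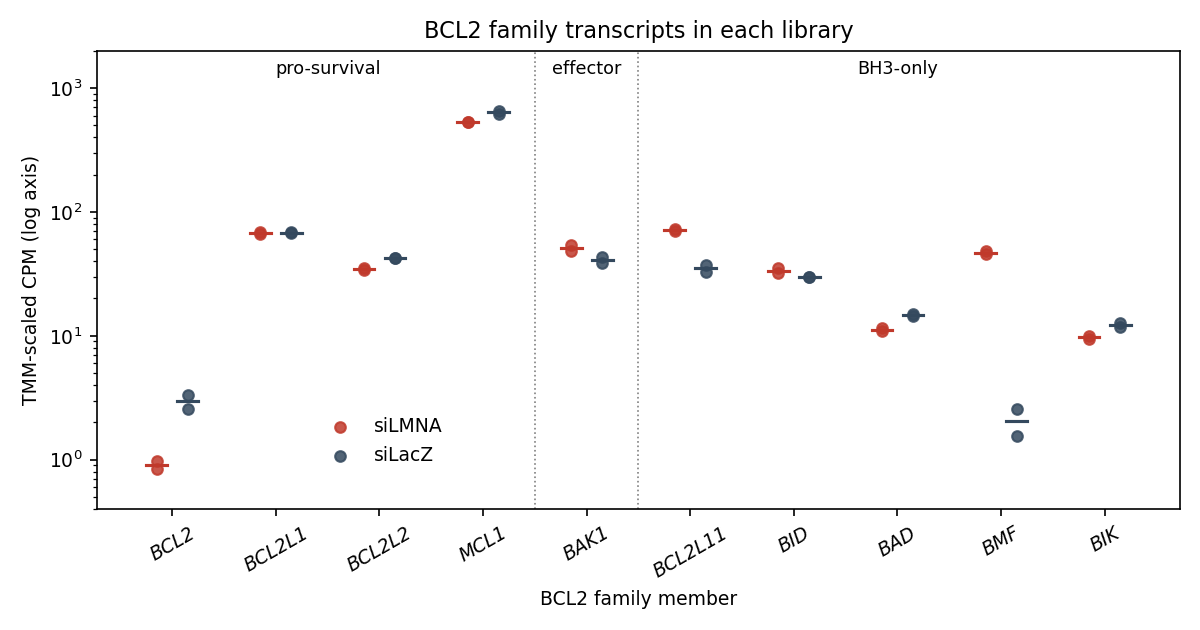
TMM-scaled CPM (log axis) of the 10 BCL2 family members in each library, siLMNA in red and siLacZ in dark blue; points are libraries and short lines are group means (n = 2 each). BMF has siLMNA points at 48.3 and 45.7 CPM, far above siLacZ points at 2.55 and 1.57 CPM, while the points of BCL2L1 overlap.

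BMF encodes a BH3-only protein that is held at the actin cytoskeleton by a dynein light chain until it is released to bind pro-survival proteins. Its gene (ENSG00000104081; hg38 chromosome 15, 40087890 to 40108892, minus strand) was counted 2064 and 1963 times in the siLMNA libraries, against 114 and 74 times in the siLacZ libraries. These counts correspond to 48.3 and 45.7 CPM in siLMNA and to 2.55 and 1.57 CPM in siLacZ. Both siLMNA libraries stood far above both siLacZ libraries, and the siLacZ libraries differed more from each other in proportion. BMF had a log2 fold change of 4.52 with an SE of 0.14 (2 libraries in each group; edgeR adjusted p = 6.72e-14), a 22.9-fold rise with a 95% interval of 18.6 to 28.3. Of all tested genes 115 had a higher log2 fold change, and 0.895% were called higher by at least 16-fold. The size rests on the low control: the log2 fold change was 4.89 without siLacZ 1, the control library with more BMF counts, and 4.22 without siLacZ 2. An antisense gene, BMF-AS1, overlaps 8.46% of the annotated exon bases of BMF and had 0 counts in every library.

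BCL2L11 encodes BIM, which binds all pro-survival members and can activate the effectors directly. It was at 72.4 and 69.6 CPM in siLMNA, against 33.0 and 37.3 CPM in siLacZ, and the groups did not overlap. The rise on the log2 scale was 1.01 (SE 0.080; edgeR adjusted p = 9.26e-09), a 2.02-fold rise with a 95% interval of 1.79 to 2.27; 11.3% of tested genes were called higher by at least 2-fold. The gene lies on chromosome 2 (hg38, 111119378 to 111168447, plus strand). The antisense gene MIR4435-2HG covers 10.9% of its exon bases and had 712 and 780 counts in siLMNA, against 577 and 503 in siLacZ. As the strand setting of the counting is not given, reads in the shared bases cannot be assigned to either gene.

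For BMF and BCL2L11, the members with the largest rises, bases upstream of a start are shown. Whether these bases have a part in either rise was not tested. RefSeq promoter windows (GRCh38.p14, 250 bases before a start) were found for 7 of the 10 members, 14 windows in all. The BMF stretch, chr15:40108893-40109129 on the minus strand, is the part of the window before the annotated gene, with a GC box (GGGCGG) in capitals. The BCL2L11 stretch, chr2:111120680-111120709 on the plus strand, surrounds a match to the FOXO motif (GTAAACA, in capitals); its RefSeq start lies 1536 bases inside the GENCODE gene.
BMF: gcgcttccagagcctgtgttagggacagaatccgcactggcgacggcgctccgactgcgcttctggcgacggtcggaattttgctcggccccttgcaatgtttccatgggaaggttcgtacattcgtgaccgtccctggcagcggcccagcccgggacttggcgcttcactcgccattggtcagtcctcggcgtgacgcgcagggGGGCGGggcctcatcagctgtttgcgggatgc
BCL2L11: gagttactccgGTAAACAcgccagggacgg

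On both strands, 7 motifs were searched in the 250 bases before each start. The FOXO letters were found in 2.98% of 35116 windows of all genes and, among members, only in that of BCL2L11. GC boxes were found in 42.6% of all windows and in 9 of the 14 member windows, including those of BMF nearest its annotated start and of BCL2L11. These windows belong to BAD, BAK1, BCL2L11, BID and BMF only. Windows of BAD and of BID overlap, so some GC boxes were counted repeatedly. The GC content of member windows ran from 47.6% to 78.0%, against a median of 58% over all windows. The SNAIL and ZEB E-box (CACCTG) was in 17.5% of all windows and in the other BMF window, whose start lies 1926 bases inside the gene. AP-1 (TGANTCA, 6.57% of all windows), TEAD (GGAATG, 11.9%) and E2F (TTTCCCGC, 1.39%) letters were in 0 of the 14 member windows, and TATAAA (10.7%) was in a window of BCL2L1. None of the matches in the BMF and BCL2L11 windows overlapped another motif. A match says only that the letters are there.

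BAK1 encodes an effector that forms pores in the outer mitochondrial membrane. It was at 53.6 and 47.9 CPM in siLMNA, against 38.7 and 42.9 CPM in siLacZ, a log2 fold change of 0.31 (SE 0.083; edgeR adjusted p = 0.00388). The groups did not overlap, but they were separated by less than the spread within siLMNA. The call was lost without siLMNA 1 (edgeR adjusted p = 0.0504), siLacZ 1 (0.157) or siLacZ 2 (0.0639). The pseudogenes BAK1P1 and BAK1P2, which could share its reads, had at most 6 counts in any library. Across the members, siLMNA and siLacZ values did not overlap for 9 of 10 genes, as was the case for 76% of all tested genes.

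The other BH3-only members moved by less than 1.5-fold. BAD, whose protein is kept inactive by phosphorylation through survival signalling, was at 11.6 and 10.8 CPM in siLMNA, against 14.9 and 14.3 CPM in siLacZ (log2 fold change -0.38, SE 0.11; edgeR adjusted p = 0.00627). BIK, an endoplasmic reticulum BH3-only gene, was at 9.43 and 9.94 CPM in siLMNA, against 11.8 and 12.7 CPM in siLacZ (log2 fold change -0.34, SE 0.11; edgeR adjusted p = 0.0197). In each gene both siLMNA libraries were below both siLacZ libraries. The call on BAD was lost without siLacZ 1 (edgeR adjusted p = 0.0666) or siLacZ 2 (0.0654), and that on BIK without siLMNA 1 (0.0998), siLacZ 1 (0.0612) or siLacZ 2 (0.142), and with DESeq2 (adjusted p = 0.122) or upper-quartile factors (0.0596). GPR137, on the opposite strand, overlaps 23.7% of the exon bases of BAD. It had 1312 and 994 counts in siLMNA, against 1203 and 1257 in siLacZ, while BAD had 494 and 466 against 665 and 677. Reads in the bases shared by GPR137 and BAD cannot be assigned to either gene. BID, which is activated by caspase-8 and links death receptors to mitochondria, was at 35.2 and 32.0 CPM in siLMNA, against 29.8 and 29.7 CPM in siLacZ. It did not pass (log2 fold change 0.17, 95% interval -0.0022 to 0.35; edgeR adjusted p = 0.0888), although both siLMNA libraries were above both siLacZ libraries; with upper-quartile factors it passed toward higher (adjusted p = 0.0196).

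BCL2, the founding pro-survival gene, had the largest fall among the members. It had 36 and 42 counts in siLMNA, against 114 and 158 in siLacZ, which are 0.843 and 0.977 CPM against 2.55 and 3.34 CPM. The log2 fold change was -1.69 (SE 0.27; edgeR adjusted p = 4.04e-05), and the 95% interval ran from -2.26 to -1.12. Both siLMNA libraries lay below both siLacZ libraries; the interval is the widest of the 10, and the summed counts are the fewest. The gene lies on chromosome 18 (hg38, 63123346 to 63320128, minus strand).

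MCL1 and BCL2L2 fell by little, and BCL2L1 did not pass. MCL1, a short-lived pro-survival protein, was at 534 and 536 CPM in siLMNA, against 651 and 622 CPM in siLacZ (log2 fold change -0.25, SE 0.065; edgeR adjusted p = 0.00347). BCL2L2, which encodes BCL-W, was at 34.0 and 35.2 CPM in siLMNA, against 42.1 and 42.7 CPM in siLacZ (log2 fold change -0.29, SE 0.077; edgeR adjusted p = 0.00375), a call that was lost without siLacZ 2 (adjusted p = 0.0773). For both genes the groups did not overlap. BCL2L2-PABPN1, on the same strand, overlaps 19.4% of the exon bases of BCL2L2, with 41 and 33 counts in siLMNA against 46 and 20 in siLacZ. PPP1R3E, on the opposite strand, overlaps 4.92%, with 262 and 243 counts in siLMNA against 290 and 281 in siLacZ. Reads in the bases that BCL2L2 shares with these genes cannot be assigned to any of them. BCL2L1, which encodes BCL-XL and, by splicing, the shorter pro-death BCL-XS, was at 66.6 and 68.3 CPM in siLMNA and at 67.2 and 69.0 CPM in siLacZ. Its log2 fold change was -0.01 with a 95% interval of -0.16 to 0.14 (edgeR adjusted p = 0.888), and its direction flipped with upper-quartile factors (0.06). Gene-level counts do not separate its splice forms, and the antisense gene ABALON overlaps 43.0% of its exon bases, with 15 and 18 counts in siLMNA against 30 and 47 in siLacZ.

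**Figure D2:**
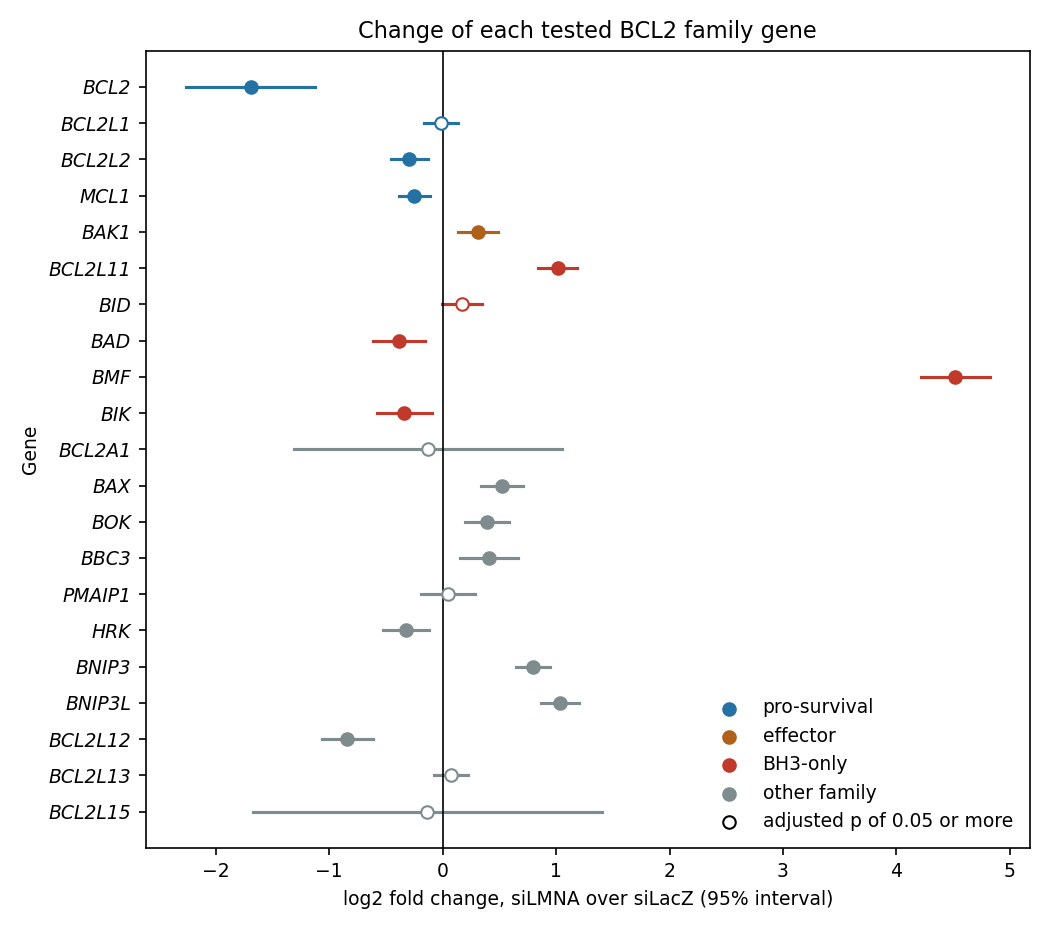
Log2 fold change (siLMNA over siLacZ, x axis) of the 10 members and of the 11 other tested genes of the BCL2 family (y axis), with 95% intervals from the edgeR fit; open points did not pass an adjusted p of 0.05. BMF stands at 4.52, BCL2L11 at 1.01 and BCL2 at -1.69, and the wide intervals of BCL2A1 and BCL2L15 go with their low counts.

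The authors' deposited tables compared 1 siLMNA with 1 siLacZ library in each of 2 pairs. In the authors' deposited tables, the log2 fold change of BMF was 4.24 in pair 1 (adjusted p = 0.801) and 4.81 in pair 2 (adjusted p = 0.997), from a comparison without replicates. For the other 9 members the authors' deposited adjusted p was 0.998 in pair 1 and 0.997 in pair 2. The signs of the authors' deposited log2 fold changes matched the fit over 4 libraries for all 10 members in both pairs.

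Between genes, levels were compared as CPM per kilobase of annotated exon (CPM/kb). MCL1 was the most abundant member in every library, at 122 and 123 CPM/kb in siLMNA and at 149 and 142 CPM/kb in siLacZ, and it made up 81.0% ± 0.263 of the pro-survival sum in siLMNA and 82.5% ± 0.702 in siLacZ (SD, n = 2 each). BCL2L1 followed among the pro-survival genes with 20.1 and 20.6 CPM/kb in siLMNA and 20.3 and 20.8 CPM/kb in siLacZ, and BCL2L2 with 8.13 and 8.39 CPM/kb in siLMNA and 10.1 and 10.2 CPM/kb in siLacZ. BCL2 was far lower, at 0.0716 and 0.0831 CPM/kb in siLMNA and 0.217 and 0.284 CPM/kb in siLacZ. The ratio of BCL2L1 to BCL2 was thus 264 ± 23.0 in siLMNA and 83.4 ± 14.3 in siLacZ.

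Among the pro-death members BAK1 was the most abundant, at 24.2 and 21.7 CPM/kb in siLMNA and 17.5 and 19.4 CPM/kb in siLacZ. In siLMNA it was followed by BCL2L11 (10.9 and 10.5 CPM/kb), BIK (9.90 and 10.4), BMF (8.87 and 8.39), BID (7.91 and 7.21) and BAD (6.77 and 6.35), and BCL2L11 and BIK lay close together. In siLacZ it was followed by BIK (12.4 and 13.3 CPM/kb), BAD (8.71 and 8.39), BID (6.71 and 6.69), BCL2L11 (4.95 and 5.61) and, far below, BMF (0.468 and 0.287). BMF thus held 13.0% ± 0.0443 of the pro-death sum in siLMNA and 0.729% ± 0.274 in siLacZ, and BCL2L11 16.0% ± 0.243 in siLMNA and 10.1% ± 0.493 in siLacZ. The ratio of BMF to BCL2L11 was 0.809 ± 0.00951 in siLMNA and 0.0729 ± 0.0307 in siLacZ. With the longest transcript in place of the exon union, BCL2L1 stood above BAK1 in siLMNA and BID above BIK, so the order of near neighbours depends on the length used.

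The summed level of the pro-survival members was lower in siLMNA than in siLacZ, and that of the pro-death members was higher. The pro-survival sum was 151 ± 0.831 CPM/kb in siLMNA and 176 ± 4.11 CPM/kb in siLacZ, and the pro-death sum was 66.5 ± 2.87 CPM/kb in siLMNA and 52.2 ± 2.06 CPM/kb in siLacZ (SD, n = 2 each). Their ratio was 2.27 ± 0.111 in siLMNA and 3.39 ± 0.212 in siLacZ, and without MCL1 on the pro-survival side it was 0.432 ± 0.0270 in siLMNA and 0.593 ± 0.0135 in siLacZ. These sums weigh each gene by its abundance and are given with no test, because they are scores over chosen members. The other family genes described below are in neither sum, so the ratio covers the 10 members only. Among those left out is the effector BAX, at 90.4 and 73.9 CPM in siLMNA, against 59.6 and 54.8 CPM in siLacZ.

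**Figure D3:**
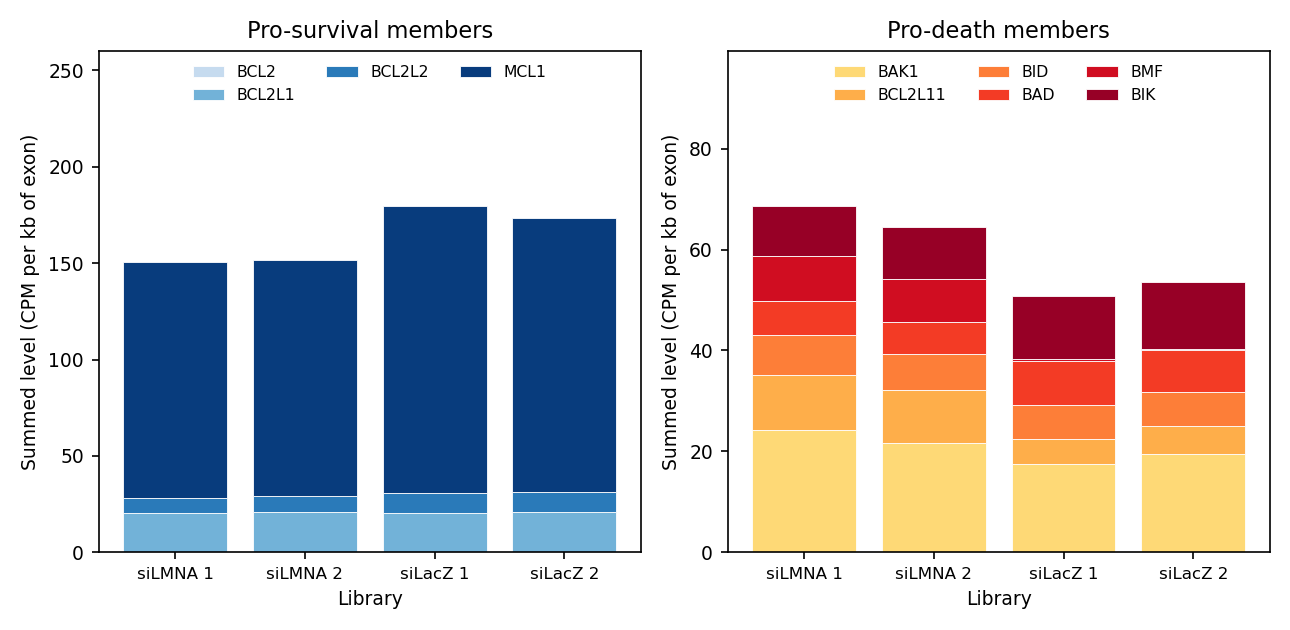
Summed level (CPM per kb of annotated exon, y axis from 0) of the pro-survival members (left panel) and the pro-death members (right panel), stacked by gene, in each library (x axis). MCL1 fills most of each left bar, and the BMF block is visible in the siLMNA bars (8.87 and 8.39 CPM/kb) and barely in the siLacZ bars (0.468 and 0.287 CPM/kb).

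Of 13 other family genes, 5 rose and 2 fell, another 4 did not pass, and 2 (BCL2L10 and BCL2L14) had too few counts to be tested. The median log2 fold change of the 11 tested genes was 0.07. Over all tested genes, 26.5% were called higher and 27.8% lower. BNIP3L and BNIP3, mitochondrial proteins with a BH3-like region best known for mitophagy and hypoxia, rose, by 1.04 for BNIP3L (SE 0.079) and 0.79 for BNIP3 (SE 0.070) on the log2 scale. BNIP3L was at 146 and 159 CPM in siLMNA, against 78.9 and 69.6 CPM in siLacZ. The effector BAX was at 90.4 and 73.9 CPM in siLMNA, against 59.6 and 54.8 CPM in siLacZ, a log2 fold change of 0.52 (SE 0.090; edgeR adjusted p = 8.62e-05). BBC3, which encodes the BH3-only protein PUMA, and BOK, an effector-like gene, rose with log2 fold changes of 0.41 (SE 0.12) and 0.39 (SE 0.092). For BCL2L12 the log2 fold change was -0.84 (SE 0.11), and the antisense overlap of IRF3 covers 33.1% of its exon bases. IRF3 had 1898 and 1811 counts in siLMNA, against 2387 and 2396 in siLacZ, while BCL2L12 had 453 and 413 against 810 and 855. HRK, a BH3-only gene, fell by 0.32 (SE 0.096). PMAIP1, which encodes the BH3-only protein NOXA, was at 11.2 and 12.4 CPM in siLMNA and at 11.1 and 11.7 CPM in siLacZ and did not pass (edgeR adjusted p = 0.745). BCL2L13 (log2 fold change 0.07) did not pass either, nor did BCL2A1, a pro-survival gene, or BCL2L15, both under 1 CPM in every library. Without siLacZ 1 or siLacZ 2, 2 of these genes rose and 1 fell, as the calls on BAX (edgeR adjusted p = 0.0578 and 0.104), BOK (0.112 and 0.0599), BBC3 (0.0543 and 0.133) and HRK (0.0556 and 0.0780) were lost; that on BBC3 was also lost without siLMNA 1 (0.0763). With DESeq2 the call on HRK was lost as well (adjusted p = 0.0596), so that 1 of these genes fell.

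Downstream of the mitochondria, genes moved in both directions. Of 19 tested genes of the apoptosome, the caspases and the inhibitors of apoptosis (IAPs), 6 rose, 8 fell and 5 did not pass, with a median log2 fold change of 0.01. Beside this, 26.5% of all tested genes were called higher and 27.8% lower. BIRC5, which encodes survivin, an IAP family protein of dividing cells, was at 16.8 and 18.4 CPM in siLMNA, against 64.6 and 71.4 CPM in siLacZ (log2 fold change -1.95, SE 0.086). DFFB, the apoptotic nuclease, and PARP1, a DNA repair enzyme cleaved by caspases, were also lower, with log2 fold changes of -1.06 for DFFB (SE 0.13) and -1.01 for PARP1 (SE 0.067). APAF1, the scaffold of the apoptosome, and BIRC3, an IAP, rose, by 0.64 for APAF1 (SE 0.089) and 0.49 for BIRC3 (SE 0.071) on the log2 scale. The count that rose was 3 without siLMNA 1 and 3 without siLacZ 2, and the count that fell was 5 without siLacZ 1 and 5 without siLacZ 2.

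Of 14 tested genes of the death receptor route, which reaches mitochondria through BID, 9 rose, 1 fell and 4 did not pass, with a median log2 fold change of 0.39. The shares over all tested genes were 26.5% higher and 27.8% lower. Against a minimum change of 1.5-fold, which 20.7% of all tested genes passed, 5 genes of the route rose and 0 fell. The list holds signalling and decoy receptors alike, so its counts do not give the activity of the route. TNFSF10, which encodes the death ligand TRAIL, was at 62.2 and 55.0 CPM in siLMNA, against 7.45 and 5.92 CPM in siLacZ (log2 fold change 3.13, SE 0.11; edgeR adjusted p = 2.40e-13). Its decoy receptor TNFRSF10D and its signalling receptor TNFRSF10B rose, by 1.62 for TNFRSF10D (SE 0.069) and 0.92 for TNFRSF10B (SE 0.069) on the log2 scale. CASP8, the caspase that cleaves BID, fell with a log2 fold change of -0.28 (SE 0.079), a call that was lost without siLacZ 1 (edgeR adjusted p = 0.0973); with library totals alone 2 genes of the route fell.

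The named binding partners and controllers of the members moved by less than 2-fold. Among the 29 tested ones, 11 rose and 6 fell, while 12 did not pass, and there was a median log2 fold change of 0.07. For comparison, 54.3% of all tested genes were called, 26.5% higher and 27.8% lower, so calls were common in general. Among those at a mean of 5 CPM or more, the largest rises were those of FOXO4, a FOXO transcription factor, YWHAZ, a 14-3-3 protein of the group that binds BAD, and GSK3B, a kinase of MCL1, with log2 fold changes of 0.82 (SE 0.097), 0.44 (SE 0.062) and 0.43 (SE 0.071). At the same minimum, the largest falls were those of MAPK9 (JNK2), VDAC3, a channel of the outer mitochondrial membrane, and ITPR1, a calcium channel of the endoplasmic reticulum, with -0.76 (SE 0.078), -0.67 (SE 0.070) and -0.43 (SE 0.099). DYNLL1 and DYNLL2, the dynein light chains that bind BIM and BMF and were named after their values were seen, had log2 fold changes of 0.06 and 0.15 and did not pass (edgeR adjusted p = 0.496 and 0.0726). The count that rose was 7 without siLMNA 1 and 4 without siLacZ 1, the count that fell was 3 without siLacZ 2, and the call on ITPR1 was lost without siLacZ 2 (edgeR adjusted p = 0.0785). With library totals alone 6 genes rose and 11 fell.

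**Figure D4:**
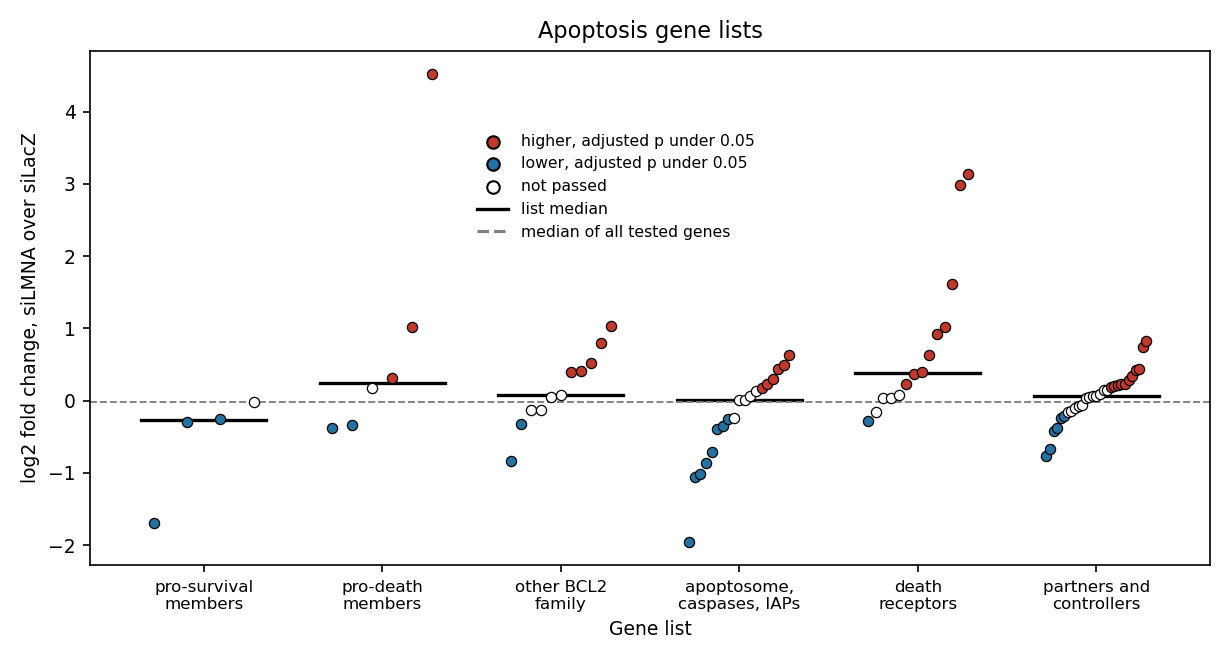
Log2 fold change (siLMNA over siLacZ, y axis) of each tested gene in 6 apoptosis lists (x axis), with genes sorted within a list, list medians as black lines and the median of all tested genes as a dashed line. Filled points passed an adjusted p of 0.05 (red higher, blue lower); BMF at 4.52 is the highest point and BIRC5 at -1.95 the lowest.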

How the data were processed

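Each of the 2 deposited tables covers 1 siLMNA library and 1 siLacZ library. Per the file headers they hold raw read counts per gene, normalized counts (a signal that is the count scaled by a constant of its library), and the log2 fold change and adjusted p-values of the authors' DESeq comparison. Reads were placed on hg38, per the submitters' processing notes; aligner, counter, annotation and strand setting: not given in the sources used here. Counts and normalized values were checked row by row (relative tolerance 1e-06). CDH1, TWIST1, ZEB1, CLDN1, OCLN and CCNB1 contradicted themselves or were listed more than once and were left out of totals and tests; no member was affected. Of the columns, 3 unnamed ones were not used.

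Counts were tested with edgeR 4.0.16 (R 4.3.3): TMM factors, filterByExpr, quasi-likelihood test with the group as the only term, adjustment at 0.05 over all tested genes; the pipeline was tested on simulated data. SE is the size of the log2 fold change over the square root of F. Within each group the libraries differed by more than counting noise (chi-square over degrees of freedom 7.04 in siLMNA and 9.29 in siLacZ) and were used as separate samples. A count of 3 corresponds to 0.0649 to 0.0701 CPM. Coordinates and lengths are from GENCODE 29, which matched 57447 of 58051 identifiers.

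The members and lists were chosen with earlier results of these data known. Named genes are the members, the other family genes, and from each further list the 3 largest rises and falls past the threshold at a mean of 5 CPM or more; some are not reported here. Alternatives tried were DESeq2 1.42.0, upper-quartile factors, library totals, no low-count filter, a replicate block, a minimum change of 1.5-fold, leaving out each library, keeping the contradicting rows, and the longest transcript.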

Additional observations from a re-analysis of the deposited data

How the results depend on the processing

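BMF, BCL2L11 and BCL2 kept their direction and passed in 11 of 11 alternatives, with log2 fold changes of 4.22 to 4.89, 0.91 to 1.13 and -1.89 to -1.46. MCL1 passed in 10, BCL2L2 in 9, BAD in 8, BAK1 in 7 and BIK in 5 of 11, and BID passed in 1 (upper-quartile factors, adjusted p = 0.0196). BIK was lost with DESeq2 (adjusted p = 0.122) and upper-quartile factors (0.0596), so that 1 pro-death member fell under each. Against a minimum change of 1.5-fold, 1 member fell, 1 pro-survival and 0 pro-death, and over all genes 2111 rose and 1735 fell. Leaving out each library in turn, 2 to 5 members fell, 0 to 2 of them pro-death, and over all genes 3182 to 4283 rose and 3121 to 4696 fell; the lowest counts were without siLacZ 2. With the longest transcript, the ratio of pro-survival to pro-death level was 2.15 in siLMNA, MCL1 held 79.3% in siLMNA and 80.9% in siLacZ of the pro-survival level, and BMF 12.6% of the pro-death level in siLMNA.

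Signs turned only where no call was made: BCL2L1 (0.0553 with upper-quartile factors, -0.0449 to 0.0245 leaving out each library), BCL2A1 (-0.79 to 0.74 leaving out each library), PMAIP1 (-0.0476 with library totals, -0.0236 to 0.12 leaving out each library), BCL2L13 (-0.0238 with library totals, -0.0016 to 0.16 leaving out each library) and BCL2L15 (-1.12 to 0.74 leaving out each library). The labels give both groups the same replicate numbers but no shared batch or day, and the deviations of same-numbered libraries correlated at -0.0997. With a replicate block, 4870 genes rose and 5093 fell, and each member kept its call. The shift of the median log2 fold change of all genes was -0.10 with library totals and 0.07 with upper-quartile factors, which limits the reading of changes of that size.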
